A study of Mus musculus with 8 samples.

Results

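Insulin signalling was followed through 9 genes: the receptor Insr, the adaptors Irs1 and Irs2, the PI3-kinase subunit Pik3r1, the kinases Akt1 and Akt2, the transcription factors Foxo1 and Foxo3, and the secreted protein Igfbp1. They were chosen by name, with earlier results of these data known. Each was read through the probe sets of the array to which its annotation gives exactly 1 gene symbol. All 9 were among the 13845 genes tested. Irs1 and Foxo1 each had 2 such probe sets, and the one with the higher mean signal was used. A further probe set (17498951), annotated to both Irs2 and 9530052E02Rik, was left out by this rule. It had low signals of 3.02 to 3.27 and a glucagon difference of -0.06. All 9 lay above the 40th percentile of the array on each of the 8 arrays, a level of 3.13 to 3.27 that also served as the filter on low signals.

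The cells were primary hepatocytes of male C57Bl6J mice, cultured for 6 h with 1 of 4 treatments: DMSO, which is the solvent control, 100 nM glucagon, 2 µM GW4064, or glucagon and GW4064 together at these doses. Glucagon, the hormone of fasting, acts on hepatocytes through cyclic AMP, and the synthetic compound GW4064 activates the bile acid receptor FXR, whose part in fasting gluconeogenesis the study addressed. Every group, the DMSO control included, was kept in medium with 100 nM dexamethasone, a synthetic glucocorticoid, and insulin is not among the medium components that the labels list. The treatments were run in 2 experiments, each on the pooled cells of 3 mice, so a group holds 2 arrays (n = 2), 1 from each cell pool, and this number sets the precision. The age of the mice is not given in the sources used here. In RNA of a whole culture, fewer cells of a type and less RNA per cell cannot be told apart.

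Insulin acts by switching on its receptor kinase, which phosphorylates the adaptors Irs1 and Irs2. These recruit PI3-kinase, whose lipid product activates AKT, and AKT phosphorylates FOXO factors, which then leave the nucleus. In fasting liver insulin is low and glucagon is high, FOXO factors are nuclear, and they and the cyclic AMP-responsive factor CREB act on genes that include Irs2, Igfbp1, Pck1 and G6pc.

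The arrays had median log2 signals of 3.42 to 3.57, the highest on the GW4064 array of experiment 2. That array correlated with the other 7 at r = 0.975 to 0.985 over the tested genes, and those 7 correlated with each other at 0.976 to 0.997. It belongs to the GW4064 group below. The hepatocyte markers, 10 of 10 tested, had a mean log2 signal of 9.74 to 10.46 on the 8 arrays. Lymphocyte and neutrophil markers (3 of 7 tested) had means of 3.32 to 3.60. Those of macrophages, endothelium, stellate cells and cholangiocytes are given beside the results they touch. The known glucagon targets Pck1 and G6pc, which encode enzymes of gluconeogenesis, rose with glucagon (log2 differences 5.15, SE 0.28, limma adjusted p = 0.000571, and 4.08, SE 0.15, adjusted p = 0.000131). The FXR targets Abcb11, the bile salt export pump, and Nr0b2, a repressor, differed with GW4064 by 0.59 (SE 0.21) and 0.34 (SE 0.12) and did not pass (adjusted p = 1 for both).

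The promoters of 3 of these genes hold the core of the insulin response element, CAAAACA, through which FOXO factors act on Igfbp1, and they are shown because Irs2 is the gene that rose with glucagon, while Irs1 and Igfbp1 hold the same core and did not pass the test. Each sequence is the 250 bases before the RefSeq start of the gene (GRCm38.p6), read 5′ to 3′ in the direction of the gene. Irs2 is taken from chr8:11008930-11009179 (minus strand), Irs1 from chr1:82291440-82291689 (minus strand) and Igfbp1 from chr11:7197537-7197786 (plus strand). Capitals mark CAAAACA or its reverse complement TGTTTTG, and in Irs1 also TGACG, the core of the cyclic AMP response element, in its reverse form CGTCA.
Irs2: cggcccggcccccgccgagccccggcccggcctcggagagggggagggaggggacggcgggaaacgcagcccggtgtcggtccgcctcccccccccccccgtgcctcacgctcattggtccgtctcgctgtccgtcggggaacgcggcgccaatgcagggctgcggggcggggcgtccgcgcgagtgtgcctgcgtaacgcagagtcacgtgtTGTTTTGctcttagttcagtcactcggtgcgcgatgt
Irs1: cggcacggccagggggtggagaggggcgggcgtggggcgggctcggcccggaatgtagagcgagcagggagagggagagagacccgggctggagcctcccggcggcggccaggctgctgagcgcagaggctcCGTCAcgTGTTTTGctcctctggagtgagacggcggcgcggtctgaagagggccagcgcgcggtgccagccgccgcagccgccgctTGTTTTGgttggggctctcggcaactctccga
Igfbp1: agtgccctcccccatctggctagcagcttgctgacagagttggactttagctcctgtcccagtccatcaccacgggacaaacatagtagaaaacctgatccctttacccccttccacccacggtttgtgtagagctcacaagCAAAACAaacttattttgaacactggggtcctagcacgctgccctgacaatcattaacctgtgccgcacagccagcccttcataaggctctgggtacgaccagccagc
In Irs2 the core lies 31 to 37 bases before the start, on the strand opposite to the gene. Irs1 has 1 copy 26 to 32 and another 105 to 111 bases before the start, both on the opposite strand, the latter beside the TGACG core at 114 to 118. In Igfbp1 it lies 102 to 108 bases before the start and on the gene's own strand. Of all 32851 promoter windows of this length in the table, 5.56% hold CAAAACA on either strand, as do 6.38% of the 27025 genes in at least 1 window. TGACG was in 17.8% of windows and 19.8% of genes. Among the 8 members in the table, which have 13 windows, it was found in at least 1 window of Irs1, Pik3r1, Akt2 and Foxo3. The full element TGACGTCA, which contains TGACG, was in 1.55% of windows (1.77% of genes) and in no member, and GTAAACA, another FOXO core, was in 3.17% (3.54% of genes) and in Akt1. A match is a stretch of letters and not a measured binding site.

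Irs2, the adaptor that carries much of the insulin signal in liver, had a higher signal in both conditions with glucagon than in both without it. With DMSO its log2 signal (probe set 17507374) was 5.81 in experiment 1 and 6.24 in experiment 2. With glucagon it was 7.87 and 7.76. With GW4064 it was 5.94 and 5.89, and with both agents 7.82 and 7.69. The 4 arrays with glucagon thus lay above the 4 without, and the lowest of the former exceeded the highest of the latter by 1.44. Irs2 was the 1 member of 9 whose 4 glucagon arrays all lay above the others, as 6.07% of all tested genes did, and no member had them all below, as 6.88% did.

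**Figure D1:**
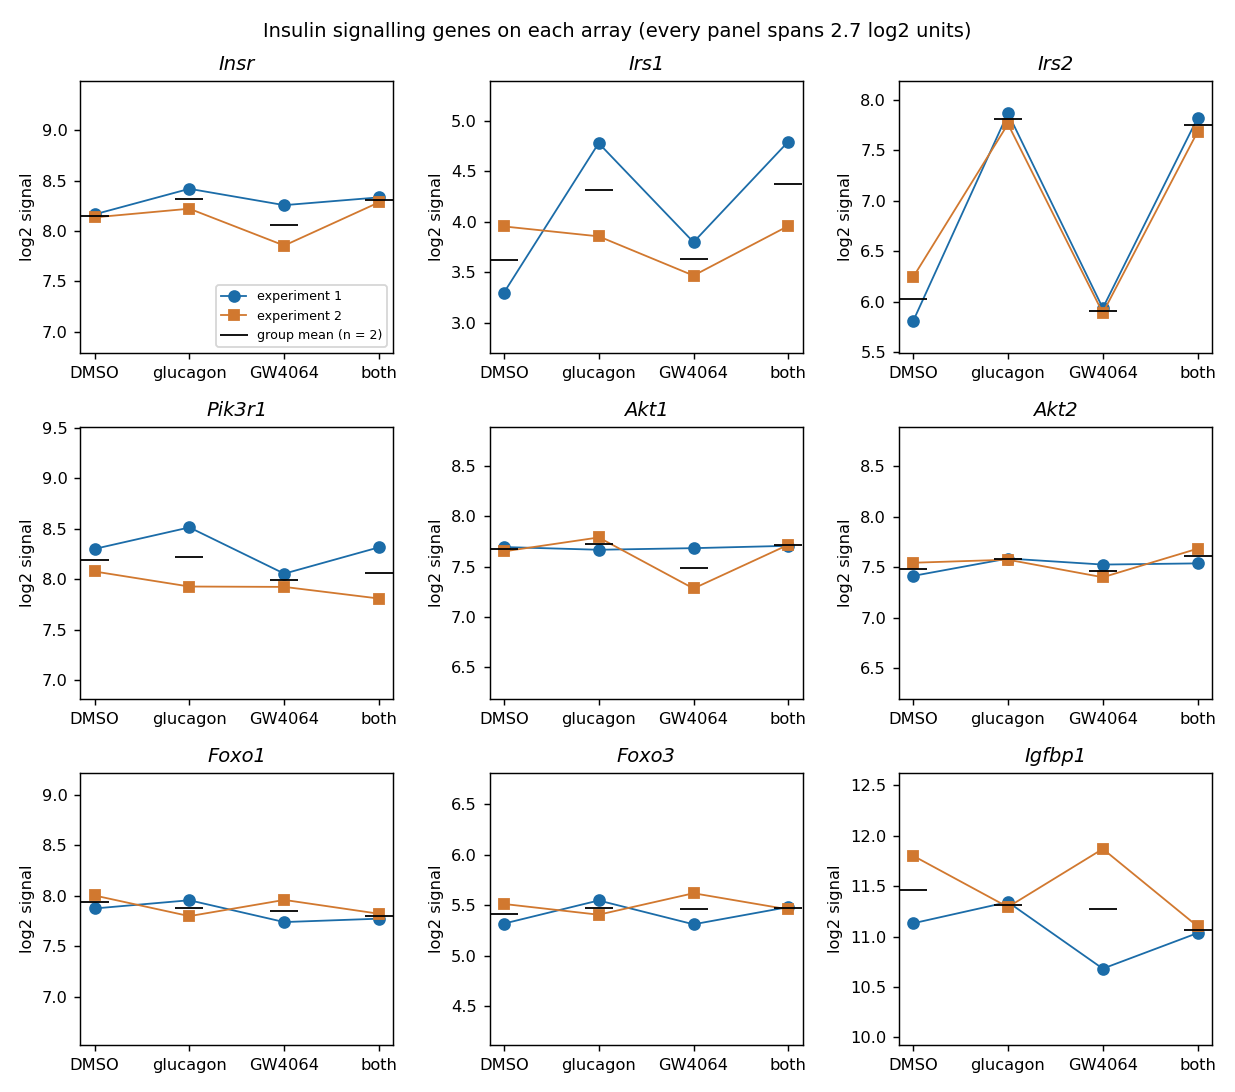
Log2 signal (vertical axes, each spanning 2.7 units) of the 9 insulin signalling genes under the 4 treatments (horizontal axes), with 1 point per array, lines joining the arrays of an experiment and black bars for the group means (n = 2). Irs2 runs from 5.81 to 7.87 with every glucagon array above every array without it, whereas Igfbp1 runs from 10.68 to 11.87 and follows a different course in each experiment.

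Averaged over the absence and presence of GW4064, Irs2 rose 3.52-fold with glucagon (log2 difference 1.82, SE 0.12, 4 arrays against 4, limma adjusted p = 0.00142). It was 1 of 9 members called in this comparison. Of all genes, 1.32% were called (0.816% rose and 0.506% fell). With the experiment as a block, which compares arrays of the same cell pool, 5.76% were called (2.67% rose and 3.08% fell), and Irs2 was again the 1 member called. Irs2 ranked 24 of 13845 by the size of its rise and 10 by its p-value. The 9 genes were chosen with earlier results of these data known. The call, the rank and the separation of the arrays of Irs2 are therefore a description. Over 18 alternative settings, 8 of which left out 1 array each, the difference ranged from 1.71 to 1.93 and the adjusted p from 0.000516 to 0.0217.

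In the absence of GW4064 the rise of Irs2 was 1.79 (SE 0.17, adjusted p = 0.0165; 2.06 in experiment 1 and 1.52 in experiment 2), where 0.116% of all genes were called (0.108% rose and 0.00722% fell), or 0.925% with the block (0.643% and 0.282%). In its presence the rise was 1.84 (SE 0.17, adjusted p = 0.0152; 1.89 and 1.80), where 0.166% were called (0.159% and 0.00722%), or 1.06% with the block (0.701% and 0.361%). These comparisons share no arrays. Their difference, the interaction on the log2 scale, was 0.05 (SE 0.23, 95% interval -0.50 to 0.60, adjusted p = 1). With 2 arrays per group, an interaction of any size within that interval remains possible. The interval is not a limit of detection, and 0% of all genes were called for the interaction. With the block both rises of Irs2 passed (limma adjusted p = 0.00812 and 0.00898). Without the block, each call was lost in some fits that left out 1 array. Leaving out an array outside the comparison did not change the difference itself (1.79 without GW4064 and 1.84 with it). The first did not pass without the DMSO array of experiment 1 (adjusted p = 0.0928), the glucagon array of experiment 1 (0.258) or 2 (0.185), or either array of the combined treatment (0.0757 each). The second did not pass without either glucagon array (0.0732 each), the combined array of experiment 1 (0.254) or 2 (0.228), or the GW4064 array of experiment 2 (0.0526). The size of the rise stayed between 1.57 and 2.01 in the first and between 1.77 and 1.91 in the second. The mean log2 signal of the cholangiocyte markers, 3 of 6 tested, was 4.02 to 4.27 on the glucagon arrays and 4.35 to 5.03 on the others. None of the 3 passed, and Sox9 differed most (-1.32, adjusted p = 0.133), with -0.22 for Krt19 and -0.00 for Epcam. Hepatocyte markers had means in experiment 1 of 9.74 with DMSO, 9.76 with GW4064, 10.18 with glucagon and 10.11 with both. In experiment 2 the same order gave 10.32, 10.46, 10.46 and 10.46. For glucagon averaged, the median difference of these 10 markers was 0.03, with a range of -0.04 to 0.83. Of the 10, 1 was called higher, beside 0.816% of all genes. The part of either marker set in the result was not tested.

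**Figure D2:**
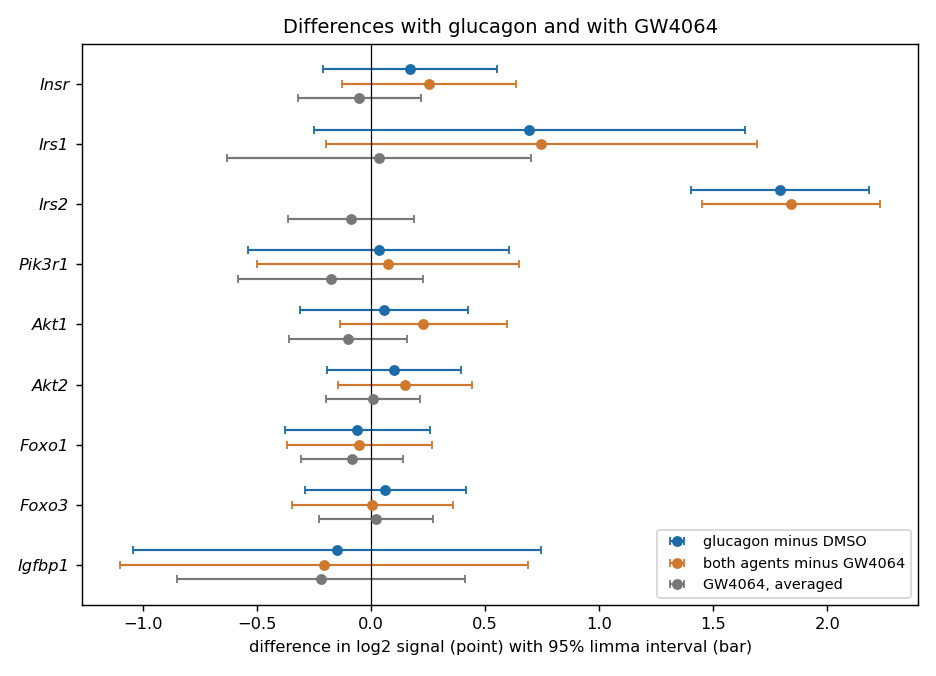
Differences in log2 signal (horizontal axis) of the 9 genes for glucagon minus DMSO, both agents minus GW4064, and GW4064 averaged over the absence and presence of glucagon, with limma's 95% intervals as bars. The intervals of both glucagon differences of Irs2 start above 1.40, and those of the other 8 genes include 0.

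The other adaptor, Irs1, had its highest signals on the 2 glucagon arrays of experiment 1. In experiment 1 it had log2 signals of 3.29 with DMSO, 4.78 with glucagon, 3.80 with GW4064 and 4.80 with both (probe set 17224878). In experiment 2 the same order of treatments gave 3.95, 3.86, 3.47 and 3.96. The glucagon arrays therefore stood apart in experiment 1, while in experiment 2 the DMSO array lay above the glucagon array. The averaged difference with glucagon was 0.72 (SE 0.28, 95% interval 0.05 to 1.39, adjusted p = 0.308) and did not pass. Its lowest signals lie close to the filter level of 3.13 to 3.27. The second probe set of Irs1 was below that level on all 8 arrays, with signals of 2.81 to 3.05.

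Insr, the receptor itself, had signals of 8.16 and 8.14 with DMSO, 8.42 and 8.22 with glucagon, 8.26 and 7.86 with GW4064 and 8.33 and 8.28 with both. The array with the lowest value was the GW4064 array of experiment 2. All 4 differences between glucagon and its matched array were positive (0.08 to 0.43), as in 15.4% of tested genes, but the averaged difference of 0.21 (SE 0.11, 95% interval -0.06 to 0.48) did not pass (adjusted p = 0.458). Irs2 and Akt2 were the other members with 4 positive differences.

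Among the kinases downstream of the adaptors no transcript passed. Pik3r1 encodes the regulatory subunits of PI3-kinase that bind phosphorylated adaptors. It had signals of 8.05 to 8.51 in experiment 1 and 7.81 to 8.08 in experiment 2. With glucagon it was higher in experiment 1 (differences 0.21 and 0.26) and lower in experiment 2 (-0.15 and -0.12). The averaged difference was 0.05 (SE 0.17, 95% interval -0.35 to 0.46, adjusted p = 0.924).

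Akt1 and Akt2 encode 2 isoforms of the kinase that phosphorylates FOXO factors, Akt2 being the main one in insulin-responsive tissue. Akt1 had signals of 7.65 to 7.79 on 7 arrays and 7.28 on the GW4064 array of experiment 2. Its averaged glucagon difference was 0.14 (SE 0.11, 95% interval -0.12 to 0.40, adjusted p = 0.611). Akt2 had the second smallest range of the 9 genes, from 7.40 to 7.68, with a glucagon difference of 0.12 (SE 0.09, 95% interval -0.08 to 0.33, adjusted p = 0.574). For both isoforms the intervals leave out a change as large as that of Irs2.

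Foxo1, the FOXO factor that drives gluconeogenic genes in liver, had the smallest range of the 9, from 7.74 to 8.00 (probe set 17397497). Its averaged glucagon difference was -0.06 (SE 0.10, 95% interval -0.28 to 0.17, adjusted p = 0.832). A second Foxo1 probe set (17405165), with a lower mean signal, gave another picture: it was highest with DMSO in both experiments, at 5.65 and 5.37, and lay at 4.76 to 5.12 on the other 6 arrays. It was tested among all 27338 kept probe sets. Against DMSO it differed by -0.48 with glucagon (SE 0.17, adjusted p = 0.96) and by -0.61 with GW4064 (SE 0.17, adjusted p = 0.92). With the other agent present, the differences were 0.09 for glucagon and -0.04 for GW4064. The averaged differences were -0.19 (SE 0.12) for glucagon and -0.33 (SE 0.12) for GW4064, and none of these passed. Foxo3, a second FOXO factor, had signals of 5.31 to 5.62 and a glucagon difference of 0.03 (SE 0.11, 95% interval -0.22 to 0.28, adjusted p = 0.922).

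Igfbp1 encodes a secreted protein that binds insulin-like growth factors and is a textbook FOXO target, repressed by insulin. It did not follow Irs2. In experiment 1 its signal (probe set 17247208) was 11.13 with DMSO, 11.34 with glucagon, 10.68 with GW4064 and 11.04 with both. In experiment 2 the values were 11.80, 11.29, 11.87 and 11.10. The glucagon arrays were thus above their matched arrays in experiment 1 (by 0.21 and 0.35) and below them in experiment 2 (by -0.51 and -0.77 as signed differences). The averaged difference was -0.18 (SE 0.27, 95% interval -0.81 to 0.45, adjusted p = 0.81), and without the GW4064 array of experiment 2 it was 0.12 (adjusted p = 0.752). The 4 arrays with glucagon spanned 11.04 to 11.34 and the 4 without it 10.68 to 11.87, so the experiments lay closer together with glucagon than without.

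**Figure D3:**
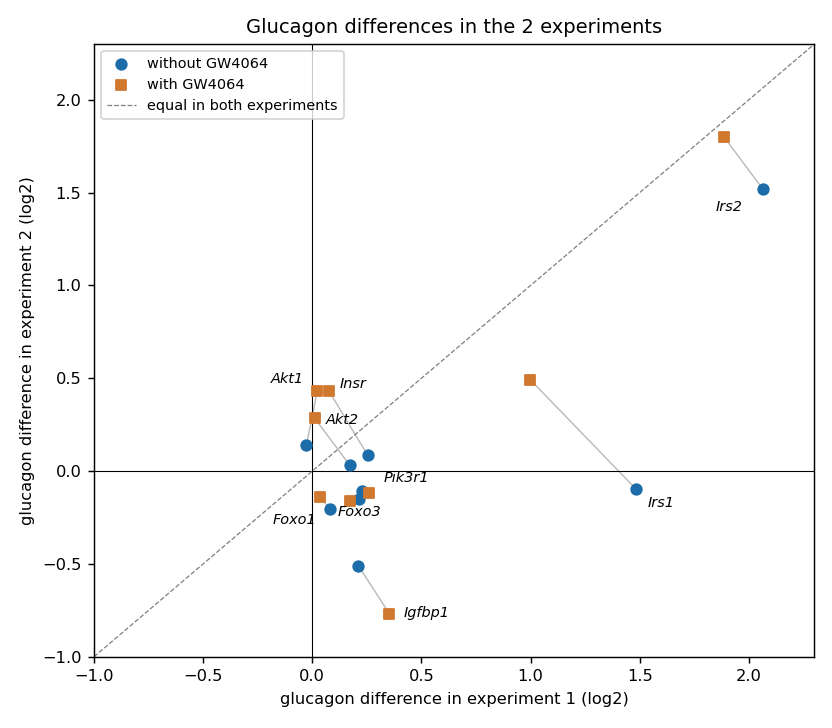
Log2 difference between each glucagon array and its matched array, in experiment 1 (horizontal axis) and experiment 2 (vertical axis), without GW4064 (circles) and with it (squares), with grey lines joining the 2 points of a gene. The dashed line marks equal values in both experiments. Irs2 lies at 2.06 in experiment 1 and 1.52 in experiment 2 without GW4064, and at 1.89 and 1.80 with it. Igfbp1, Pik3r1, Foxo1 and Foxo3 have positive values in experiment 1 and negative values in experiment 2.

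Igfbp1, Pik3r1, Foxo1 and Foxo3 had both glucagon differences positive in experiment 1 and negative in experiment 2. This pattern was found in 5.73% of tested genes. The difference between the experiments was tested with a term for glucagon by experiment, chosen after these values were seen, and 0 of the 9 genes passed over all genes (1 gene, or 0.00722%, did, and 1466 had an unadjusted p under 0.05). The estimates, experiment 2 minus experiment 1, were -0.92 for Igfbp1 (SE 0.19, adjusted p = 0.219), -1.04 for Irs1 (SE 0.31, adjusted p = 0.344), -0.37 for Pik3r1 (SE 0.13, adjusted p = 0.397) and -0.32 for Irs2 (SE 0.18, adjusted p = 0.596).

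GW4064 moved none of the 9 past the test, alone, on top of glucagon or averaged (by limma 0 of 9, and 0% of all tested genes). Over all genes 373, 90 and 216 had an unadjusted p under 0.05 in these 3 comparisons. Without the GW4064 array of experiment 1, the GW4064 group is 1 array, that of experiment 2, which had the highest median signal. Calls from that fit are not read as a response to GW4064. The averaged differences ran from -0.22 for Igfbp1 (SE 0.27, 95% interval -0.85 to 0.41; 0.08 without the GW4064 array of experiment 1) to 0.03 for Irs1 (SE 0.28, 95% interval -0.63 to 0.70). For Irs2 the difference was -0.09 (SE 0.12, 95% interval -0.36 to 0.19, adjusted p = 1), with 0.13 and -0.05 in experiment 1 and -0.35 and -0.08 in experiment 2. Igfbp1 was lower with GW4064 in experiment 1 (-0.45 alone and -0.31 with glucagon), and its values in experiment 2 were 0.07 and -0.19. No member had its 4 GW4064 arrays apart from the other 4, as 0.571% of tested genes had them above and 0.607% below. The interaction was called for none of the 9 (0% of all genes, with 149 at an unadjusted p under 0.05), with estimates of -0.06 to 0.17.

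Between the experiments, 0 of the 9 genes differed past the test, where 5.16% of all genes did (2.64% were higher in experiment 2 and 2.52% lower). This test compares 2 cell pools only. The nearest was Pik3r1, with lower values in experiment 2 (-0.36, SE 0.10, adjusted p = 0.0952), followed by Igfbp1 with higher ones (0.47, SE 0.21, adjusted p = 0.229). Irs2 differed by 0.04 (SE 0.12). Sinusoidal endothelial markers, 6 of 7 tested, had a mean log2 signal of 5.30 to 5.40 in experiment 1 and 4.88 to 4.92 in experiment 2, with 2 called lower. Hepatocyte markers had 9.74 to 10.18 and 10.32 to 10.46, with 3 of 10 called higher in experiment 2. Macrophage markers, 8 of 8 tested, had 4.16 to 4.24 and 4.26 to 4.43, with 2 called higher (Cd68 and Marco). Of these 8, 5 had a positive difference, while Clec4f (-0.07), Timd4 (-0.03) and Csf1r (-0.02) did not. Stellate cell markers, 3 of 7 tested, had 4.32 to 4.46 in experiment 1 and 4.78 or more in experiment 2, with 2 called higher. Their part in these differences was not tested.

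The rest of the pathway was read from 7 lists of 98 genes in all, of which 78 were tested. The lists were chosen with earlier results of these data known and include the glucagon check genes Pck1 and G6pc. The counts are therefore a description and no test of the pathway. With glucagon, averaged over both backgrounds, 5 of the 78 rose and 0 fell, against 0.816% and 0.506% of all genes. With the experiment as a block 9 rose and 3 fell, against 2.67% and 3.08%. Besides the gluconeogenic FOXO targets Pck1, G6pc and Ppargc1a, the genes that rose were Grb14 and Pde3b. Grb14 encodes an adaptor that inhibits the insulin receptor kinase. Its signal was 4.98 and 4.94 with DMSO, 6.03 and 5.74 with glucagon, 4.99 and 4.42 with GW4064, and 5.77 and 5.54 with both (log2 difference 0.94, SE 0.15, adjusted p = 0.0372). Every glucagon array lay above every other array, as in 6.07% of tested genes. Grb14 was named because it passed this same comparison, so the separation is no further evidence. Pde3b encodes a phosphodiesterase that insulin activates to lower cyclic AMP. Its signal was 7.39 and 7.36 with DMSO, 7.87 and 7.98 with glucagon, 7.34 and 7.25 with GW4064, and 7.67 and 7.82 with both (0.50, SE 0.09, adjusted p = 0.049). Neither Grb14 nor Pde3b passed without either DMSO array, either glucagon array or either combined array, when 3 of the list genes were called. Without the GW4064 array of experiment 1 there were 8, and Pde3b did not pass without the GW4064 array of experiment 2 (adjusted p = 0.0531). With median centring neither passed (0.0623 for Grb14 and 0.0734 for Pde3b).

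By role, 12 of 14 brakes of the pathway were tested, with a median difference of -0.01 beside -0.00 for all genes. Grb14 rose, and with the block 2 more changed, both downward: Grb10, a relative of Grb14 that also inhibits the receptor (-0.69, adjusted p = 0.385 without and 0.0214 with the block), and Trib3, a pseudokinase that binds AKT (-0.48, 0.197 and 0.0267). Among receptors and ligands 4 of 10 were tested, with a median of 0.09. None passed, and with the block Igf1, the insulin-like growth factor made by liver, rose (0.72, 0.0728 and 0.00794). Of adaptors and PI3-kinase subunits 13 of 17 were tested (median 0.02). None passed, and with the block Sos1, an exchange factor on the branch to RAS, rose (0.48, 0.17 and 0.0471). In the AKT branch 20 of 24 were tested (median 0.03), and Pde3b was the 1 called with and without the block.

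Of FOXO targets 14 of 15 were tested, with a median of 0.22. Pck1, G6pc and Ppargc1a, the coactivator of gluconeogenic genes, rose, the last by 3.46 (SE 0.30, adjusted p = 0.00589). In experiment 1 its signals of 3.13 with DMSO and 3.08 with GW4064 were below the 40th percentile of their arrays (3.14 and 3.13), so the size there is not measured exactly. In experiment 2, with 4.11 and 3.90 on these arrays, the glucagon differences were 2.92 and 3.68. Txnip, an inhibitor of glucose uptake, fell with the block only (-0.80, adjusted p = 0.107 and 0.00609). Of genes that insulin raises 9 of 11 were tested (median 0.20). None passed, and with the block the fatty acid elongase gene Elovl6 (0.51, 0.323 and 0.0349) and the fatty acid synthase gene Fasn (0.48, 0.37 and 0.0376) rose. Among the other IGF binding proteins 6 of 7 were tested (median -0.03) and none passed with or without the block. Igfals, the acid-labile partner of circulating IGF, differed by 0.40 (adjusted p = 0.332) and Igfbp3 by -0.09.

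**Figure D4:**
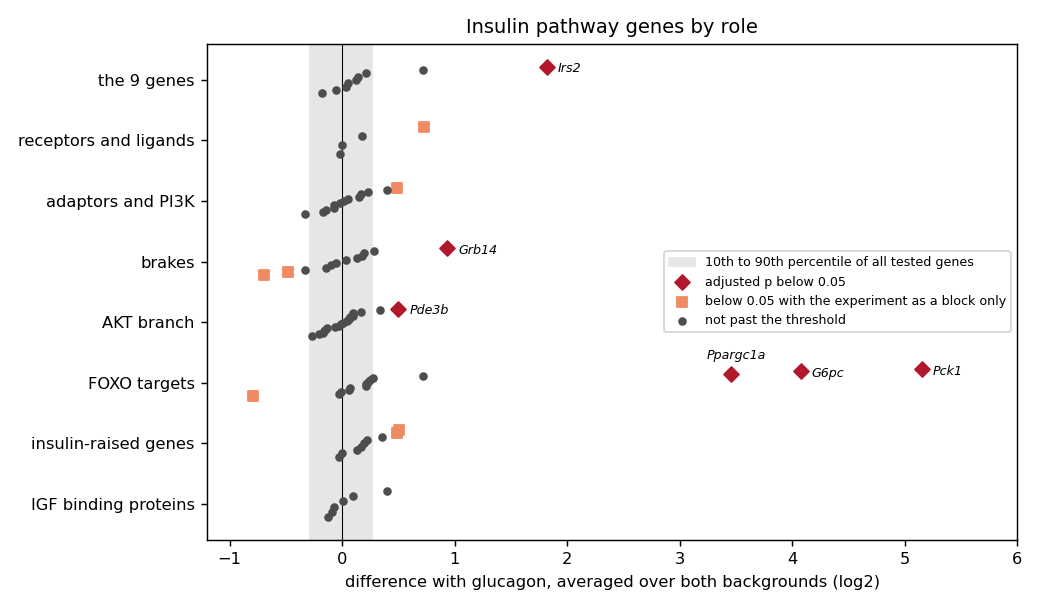
Log2 difference with glucagon, averaged over the absence and presence of GW4064 (horizontal axis), for the 9 genes and the tested genes of 7 lists (rows), with 1 point per gene. Diamonds mark genes past an adjusted p of 0.05, squares those past it with the experiment as a block only, and the grey band spans the 10th to 90th percentile of all tested genes, -0.28 to 0.26; Irs2 is the 1 diamond among the 9 genes at 1.82.

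The genes with the pattern most like that of Irs2 were sought by Pearson's r over the 8 arrays, after subtracting each experiment's mean, as a description. These arrays share the glucagon treatment, which alone separates 4 from 4. The 5 nearest of 13845 were AA986860 (r = 0.997), Gde1, a glycerophosphodiester phosphodiesterase (0.995), Pck1 (0.995), Cpt1a, the enzyme that commits fatty acids to oxidation (0.995), and G6pc (0.994). Their averaged glucagon differences were 2.12, 1.01, 5.15, 1.83 and 4.08, all past the test but that of Gde1 (adjusted p = 0.117). AA986860 had signals of 4.29 and 5.48 with DMSO and 6.87 and 7.13 with glucagon. For Igfbp1 the nearest were H6pd, the hexose-6-phosphate dehydrogenase of the endoplasmic reticulum (r = 0.996), Hs3st3b1 (0.982), Gm8633 (0.978), Fbxo30 (0.975) and Gcc2 (0.97). Like Igfbp1, H6pd was higher with glucagon in experiment 1 (8.20 against 8.04 with DMSO) and lower in experiment 2 (8.17 against 8.50).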

How the data were processed

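RNA of 8 cultures was hybridised to Affymetrix MoGene 2.0 ST arrays, 2 technical replicates having been pooled per sample, per the labels. GeneSpring was the software the authors used, per the labels, and their deposited log2 signals were taken unchanged. That they are log2 values was read from their range. Their background correction, summarisation, normalization and genome build are details not given in the sources used here. The annotation gave 1 symbol to 23521 of 41345 probe sets, and only these were used as genes. Probe sets had to lie above the 40th percentile on 2 or more arrays, and a gene was represented by its probe set with the highest mean, which left 13845 genes.

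The tests used limma 3.58.1 (R 4.3.3), with 1 mean for each treatment fitted to the 8 arrays (4 residual degrees of freedom, empirical Bayes, two-sided, Benjamini-Hochberg adjustment over all tested genes, threshold 0.05), and SE and 95% intervals are limma's. The experiment comparison came from the model with group and experiment. Each experiment used its own pooled cells for the 4 treatments, per the labels, which pairs its arrays. Their deviations from the treatment means had pairwise r of 0.350 to 0.620. With 2 cell pools, p-values measure the spread between these samples only. The main model had no term for the experiment. Adding it as a block left 3 residual degrees of freedom. Alternatives were other normalizations, filters and block choices, and leaving out each array. The averaged glucagon comparison and the term for glucagon by experiment were tested on simulated data. There the main model was run only without a shift between the experiments, so its p-values under such a shift were not simulated. The named genes were the 9 members, 4 check genes, per list up to 4 genes past the threshold of the averaged glucagon comparison with or without the block (otherwise the 2 with the smallest p), and the 5 genes most like Irs2 and Igfbp1. The members and lists were chosen with earlier results of these data known. Promoter sequences are from a RefSeq table that held 8 of the 9 members.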

Additional observations from a re-analysis of the deposited data

Results flagged for a closer look

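For 4 of the 9 genes every glucagon difference was positive in experiment 1 and negative in experiment 2. Their mean differences in experiments 1 and 2 were 0.28 and -0.64 for Igfbp1, 0.24 and -0.13 for Pik3r1, 0.20 and -0.13 for Foxo3, and 0.06 and -0.17 for Foxo1. Experiment 2 minus experiment 1 was -0.92, -0.37, -0.33 and -0.23 in that order. Opposite differences in either order were found in 10.7% of all tested genes. By limma's term for glucagon by experiment none of the 4 passed over all genes (adjusted p = 0.219 for Igfbp1, 0.397 for Pik3r1, 0.461 for Foxo3 and 0.609 for Foxo1), with 1 gene past the test in all and 1466 at an unadjusted p under 0.05.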

How the results depend on the processing

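The replicate block changed no call of the 9 genes. The averaged glucagon rise of Irs2 passed in all 18 alternatives, and none of the other 8 genes passed in any comparison under any alternative. Of 1305 alternative values for the 9 genes, 14 lost a call, all of Irs2 in the comparisons with 2 arrays on each side, and 125 of uncalled differences changed sign. In these comparisons the members called went from 1 to 0 with adjustment over all kept probe sets, and with only the groups compared (Irs2 adjusted p = 0.0829 and 0.114 without GW4064, 0.058 and 0.133 with it).

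Counts of all genes moved more. For glucagon without GW4064, with it and averaged they were 16, 23 and 183. They became 128, 147 and 797 with the replicate block, 59, 75 and 444 with the experiment as a random block, 9, 9 and 69 over all kept probe sets, and 438, 190 and 1454 with the replicate block and without the GW4064 array of experiment 2. They were 9 and 3 with only the groups compared. For GW4064 averaged, the replicate block without that array gave 3 genes. The experiment comparison had 715 genes, 1090 with a mean-variance trend and 26 over all kept probe sets. The pathway lists had 5 called genes, 12 with the replicate block, 15 with it and without that array, and 3 with median centring or over all kept probe sets.

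Leaving out 1 array at a time gave 2 to 27, 2 to 759 and 25 to 702 genes for the 3 glucagon comparisons, 0 to 406 for GW4064 against DMSO, 26 to 728 for the experiments, 3 to 8 in the pathway lists, and 0 to 1 members called in each comparison of glucagon with 2 arrays on each side. The highest glucagon counts and the 406 came without the GW4064 array of experiment 1 (27, the same without that of experiment 2, 759 and 702). Without the GW4064 array of experiment 1, that group is 1 array, that of experiment 2, which had the highest median signal. The causes were not tested. The other counts stayed within 1.5 times. With median centring the median of all genes was -0.10 for GW4064 against DMSO and 0.10 for the interaction. The list recount and the experiment-by-glucagon term were chosen after seeing the data.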
